A study of Homo sapiens with 6 samples.

Results

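The SLC30A family was examined in MCF10A cells, an established human mammary epithelial line that is not tumorigenic, after the labile Zn2+ pool had been lowered or raised. The members were the 10 genes SLC30A1 to SLC30A10, of 20007 protein-coding genes of GENCODE release 44 on chromosomes 1 to 22, X and Y. They were chosen by family name, and the window of a member was its gene body with 10 kb on either side. Accessible chromatin was measured by ATAC-seq, in which Tn5 transposase cuts open DNA, and 1 list of open regions per library was deposited. All cells were first held for 30 min in a phosphate-free buffered salt solution. They were then given 50 μM of the chelator TPA (tris(2-pyridylmethyl)amine), 30 μM ZnCl2 or buffer alone (Control) for 30 min, and each condition gave 2 libraries, or 6 altogether. The cells are 1 line under all 3 conditions, and the study's text calls the replicates biological in one place and technical in another, so the spread between them may be technical.

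SLC30A proteins, also called ZnT transporters, move zinc out of the cytosol, either across the plasma membrane or into vesicles and organelles. SLC39A proteins carry zinc the opposite way, and metallothioneins bind it in the cytosol. In mammals MTF1, a transcription factor that senses zinc, binds short DNA sequences named metal response elements, and SLC30A1 and the metallothionein genes are among its known targets.

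Replicates 1 and 2 had lists of 25031 and 44641 open regions for Control, 35902 and 41376 for TPA, and 38069 and 18887 for ZnCl2. The median widths were 1220 and 1760 bp (Control), 1160 and 1070 bp (TPA), and 1450 and 2070 bp (ZnCl2). ZnCl2 replicate 2 thus had the shortest list and the widest regions, and Control replicate 2 had the longest list. Reads were not analysed here, so the sequencing depth is unknown, and an uncovered start site means that no region was called there, not that the site was closed. Of 9 epithelial markers, basal and luminal, 3 had an open region over the start site in all 6 libraries (among them the basal integrin ITGB4 and the luminal keratin KRT18), 5 in some and 1 in none. The uncovered marker was TP63 at its canonical start, while KRT5, a keratin of basal cells, was covered in 5 libraries. Some of these markers differed between TPA and Control. CDH1 was covered in both TPA and neither control library, as 0.245% of all genes were, and KRT8 showed the reverse, as 0.56% did. KRT5 and KRT17 ranked higher after TPA without overlap, as 10.3% of genes covered throughout did. Of 9 markers of blood, vessel, liver, islet and nerve cells, 8 were covered in none, including PTPRC, PECAM1, ALB and INS. The exception was SYP, a synaptic vesicle gene, which was covered in 4 libraries.

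An open region covered the canonical start site of 6 members in every library, namely SLC30A1, SLC30A4, SLC30A5, SLC30A6, SLC30A7 and SLC30A9. The other 4 members, SLC30A2, SLC30A3, SLC30A8 and SLC30A10, were covered at that site in no library. For comparison, 43.0% of all protein-coding genes were covered in all 6 libraries and 36.8% in none. No member fell between these extremes, so none gained its start site (covered in both treated libraries and neither control library) or lost it with either treatment. Among all genes, 0.245% gained and 0.56% lost the start site after TPA, and 0.045% and 0.115% did so after ZnCl2. Between TPA and ZnCl2 no member differed in coverage either, against 0.725% of genes covered in both TPA and neither ZnCl2 library and 0.615% with the reverse. The covered members include the plasma membrane exporter SLC30A1 and the transporters of the Golgi and early secretory pathway, SLC30A5, SLC30A6 and SLC30A7. The uncovered ones include SLC30A2, which loads zinc into vesicles in the lactating mammary gland, SLC30A3 of synaptic vesicles, SLC30A8 of insulin granules, and SLC30A10, which mainly exports manganese.

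GC content did not separate these groups of members. The start site with 500 bases on either side held 71.1% GC in SLC30A2, 70.8% in SLC30A3 and 67.5% in SLC30A10, all uncovered. The median was 64.3% over the 8610 genes covered in all libraries and 54.3% over the 7371 covered in none. The 3 uncovered members above thus had more GC than the typical covered gene, whereas SLC30A8, at 41.2%, had less. The covered members ranged from 53.1% in SLC30A6 to 73.7% in SLC30A1.

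The promoters of 3 members are shown because they differ in both openness and metal response element letters. Each run is the 250 bases before the RefSeq start site in hg38, on the gene's strand, and capitals mark every match to TGCACNC or TGCGCNC, the metal response element core, on either strand. On the opposite strand these read GNGTGCA and GNGCGCA, and the pair differ from each other in 1 letter. SLC30A1 was open in all libraries and ranked highest of the members (chr1:211579162-211579411, minus strand), SLC30A4 was open with the lowest ranks (chr15:45522756-45523005, minus strand), and SLC30A2 had no call at its start (chr1:26046119-26046368, minus strand).
SLC30A1: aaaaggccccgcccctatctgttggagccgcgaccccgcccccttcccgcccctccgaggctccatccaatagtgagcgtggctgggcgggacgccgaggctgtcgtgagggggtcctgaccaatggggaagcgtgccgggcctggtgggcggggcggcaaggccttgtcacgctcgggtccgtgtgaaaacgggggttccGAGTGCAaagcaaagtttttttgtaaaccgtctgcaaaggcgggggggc
SLC30A4: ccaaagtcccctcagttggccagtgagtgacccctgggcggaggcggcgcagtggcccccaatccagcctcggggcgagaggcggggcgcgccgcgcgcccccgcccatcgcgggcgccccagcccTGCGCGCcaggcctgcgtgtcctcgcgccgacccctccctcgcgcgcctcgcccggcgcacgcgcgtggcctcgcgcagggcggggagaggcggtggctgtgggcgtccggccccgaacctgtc
SLC30A2: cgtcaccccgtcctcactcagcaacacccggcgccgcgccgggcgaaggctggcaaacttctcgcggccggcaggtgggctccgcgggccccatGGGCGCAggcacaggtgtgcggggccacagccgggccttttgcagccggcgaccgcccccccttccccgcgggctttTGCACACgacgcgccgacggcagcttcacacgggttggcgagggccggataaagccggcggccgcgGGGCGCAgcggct

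In SLC30A1 the marked letters began 49 bases before the start site (chr1:211579204-211579210). A second match began at base 25 of the transcribed part, with the start site as base 1 (chr1:211579131-211579137), and is shown with 9 bases on either side.
SLC30A1 second match: gaccgggccGAGTGCAgctgccgtg

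Counted over 300 bases, from 250 before to 50 after the start site, SLC30A1 held 2 matches, SLC30A2 3, SLC30A4 1 and SLC30A6 1. SLC30A3 held 1 at its canonical promoter and 2 at another promoter listed by RefSeq. SLC30A5, SLC30A7, SLC30A9 and SLC30A10 held none, and SLC30A8 had no promoter entry. Of 21613 promoters of protein-coding genes, 33.9% held at least 1 match and 10.4% held 2 or more. Matches were therefore present in covered members (SLC30A1, SLC30A4, SLC30A6) and in uncovered ones (SLC30A2, SLC30A3). A match describes the letters and does not show that a protein binds there.

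SLC30A1 encodes ZnT1, the exporter at the plasma membrane, and its start site at chr1:211579161-211579161 (minus strand) was covered by a region near the top of every list. The score that the authors' caller gave this region was 146 and 247 in the control, 190 and 190 after TPA, and 243 and 144 after ZnCl2. Since scores differ in scale between lists, each was ranked as the percentage of regions in its own list with a lower score. The rank was 99.3 and 99.5% in the control, 99.5 and 99.4% after TPA, and 99.4 and 98.6% after ZnCl2. The region thus ranked between 98.6 and 99.5% in all 6 lists, and the control values overlapped those of both treatments. The mean rank over the 6 libraries, 99.3% ± 0.356 (SD, n = 6), was higher than that of 99.2% of the 8610 genes covered throughout.

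**Figure D1:**
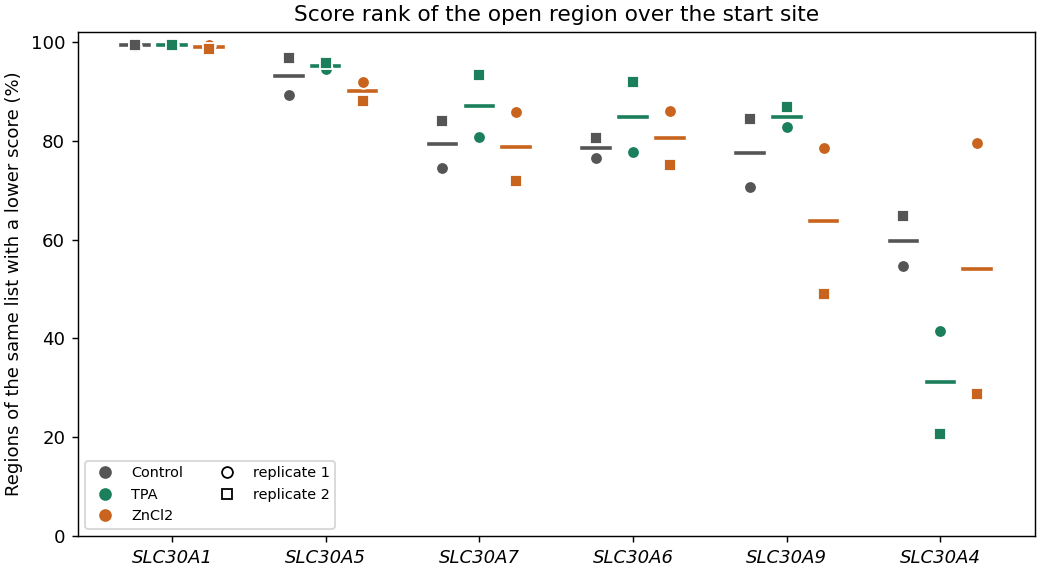
Rank of the open region over the start site of the 6 covered members, as the percentage of regions in the same list with a lower score (vertical axis), with 1 point per library (circle, replicate 1, and square, replicate 2) and a bar at the group mean of 2. SLC30A1 lies between 98.6 and 99.5% in all 6 libraries, and SLC30A4 runs from 20.7 to 79.6%.

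The region over the SLC30A1 start was wider after ZnCl2. Its width was 2930 and 3430 bp in the control, 2920 and 3100 bp after TPA, and 4010 and 6160 bp after ZnCl2. Both ZnCl2 libraries exceeded both control libraries, with means of 5085 ± 1520 and 3180 ± 354 bp (SD, n = 2 each; two-sided exact permutation test, p = 0.33). That is the smallest p that 2 libraries against 2 can give, so no such comparison can reach 0.05. Of all genes covered throughout, 10.9% were likewise wider after ZnCl2 with no overlap between the groups. On the upstream side the region reached 959 and 1289 bp beyond the start in the control, 899 and 1069 bp after TPA, and 1869 and 1849 bp after ZnCl2. The upstream reach was thus nearly the same in both ZnCl2 libraries and was 735 bp longer on average than in the control, a pattern seen in 14.4% of genes. Region width differed between lists, so widths were also ranked within their own list. The width rank was 95.2 and 87.9% in the control and 96.8 and 98.3% after ZnCl2, again with no overlap, as in 8.55% of genes. The part of ZnCl2 replicate 2, whose list had the widest regions, in the width difference was not tested. The width in ZnCl2 replicate 1 was 4010 bp.

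The stretch called in both ZnCl2 libraries and in none of the other 4 ran from 1290 to 1849 bp upstream of the start (chr1:211580451-211581010). It held 38.2% GC and 0 matches to the metal response element letters in its 560 bp. The whole merged region over the start (6180 bp, 49.1% GC) held 7. The stretch was picked from these same calls, and the count expected for its length and GC content was not computed. By its position the additional sequence lay outside the promoter shown above.

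**Figure D2:**
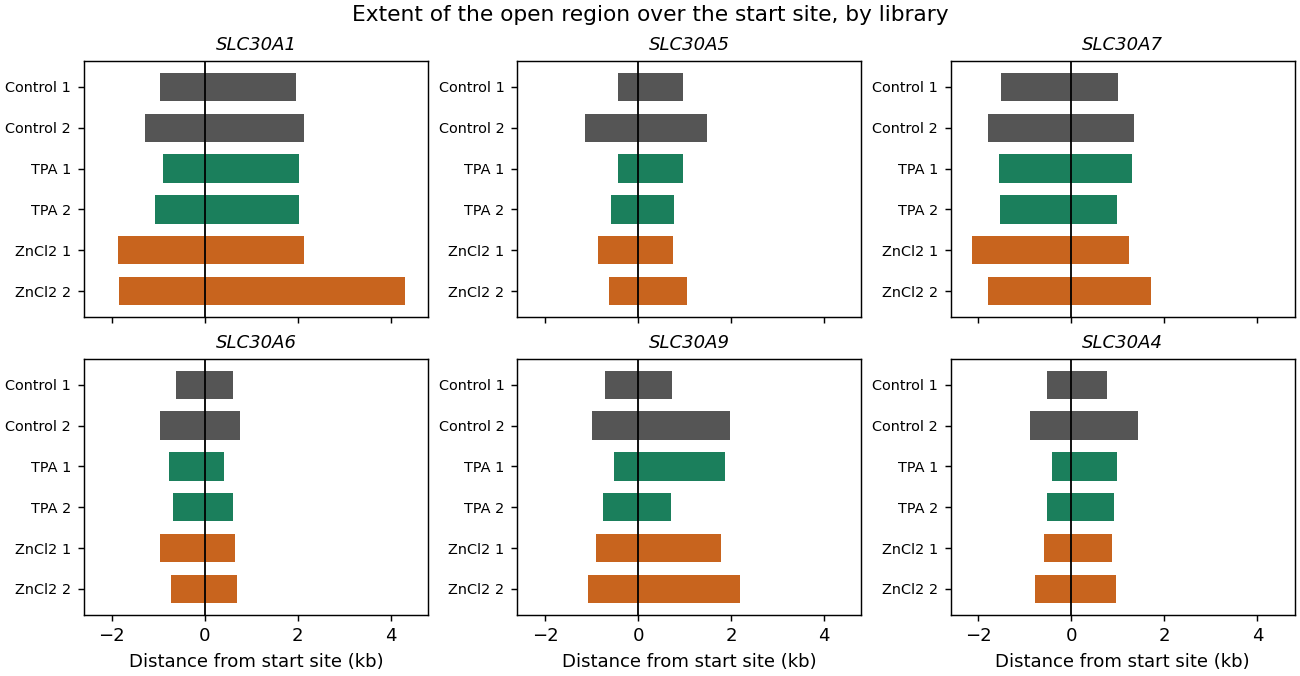
Extent of the open region over the start site in each library (rows), as distance from the start site in kb (horizontal axis, upstream to the left), for the 6 covered members. The SLC30A1 region reaches 1869 and 1849 bp upstream in the ZnCl2 libraries and at most 1289 bp in the other 4.

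SLC30A4 encodes ZnT4, a vesicular zinc transporter that is also expressed in mammary tissue, and it was the one covered member whose ranks after TPA and in the control did not overlap. The score over its start site (chr15:45522755-45522755, minus strand) was 47 and 68 in the control, 46 and 37 after TPA, and 86 and 37 after ZnCl2. The rank was 54.7 and 64.7% in the control, 41.5 and 20.7% after TPA, and 79.6 and 28.7% after ZnCl2. Both TPA values lay below both control values, while the ZnCl2 libraries lay on either side of the control. The mean rank was 59.7% ± 7.13 in the control and 31.1% ± 14.7 after TPA (SD, n = 2 each), with a difference of -28.6 points (exact permutation test, two-sided, p = 0.33). The difference was -18.2 points without TPA replicate 2. A lower rank after TPA and no overlap was found in 23.8% of genes. The region reached 535 and 885 bp upstream in the control and 425 and 525 bp after TPA, again without overlap, as in 18.9% of genes.

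When each list was limited to its 18887 highest scores, the number of regions in the shortest list, SLC30A4 was covered in both control and both ZnCl2 libraries and in neither TPA library. The lowest score kept was 49 and 54 in the TPA lists, above the SLC30A4 scores of 46 and 37. It was 36 and 60 in the control lists and 52 and 30 in the ZnCl2 lists. A score of 37 was thus kept in ZnCl2 replicate 2, whose list was not shortened, and dropped in TPA replicate 2. The part of list length in this difference was not tested. At this list length 3.87% of all genes lost their start site after TPA relative to the control, and 5.38% relative to ZnCl2. The other 5 covered members stayed covered in all 6 shortened lists.

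Scores were also compared in 1 fit across the genome. Regions of the 6 lists were merged where they overlapped or touched, and the 15852 merged regions called in all 6 libraries were tested with limma on quantile-normalized log2 scores. With an adjusted p under 0.05, 1036 regions (6.54%) were called for TPA against Control, 69 (0.435%) for ZnCl2 against Control and 3708 (23.4%) for TPA against ZnCl2. These counts rest on single libraries, being 3 and 0 for the comparisons with Control when Control replicate 1 was left out (2875 and 1731 at an unadjusted p under 0.05), and 1654 for TPA against ZnCl2 without TPA replicate 2. Of the 6 start-site regions of the family, none was called against the control with either treatment by limma. At an unadjusted p under 0.05 the count was 1 after TPA, SLC30A4, and 0 after ZnCl2, where 23 and 15% of all regions passed.

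The normalized log2 score of SLC30A4 was 5.91 and 5.65 in the control, 5.53 and 5.19 after TPA, and 6.16 and 5.75 after ZnCl2. Both TPA libraries were below the other 4 on this scale, and the share of all regions with this pattern was not counted. The difference in normalized log2 score was -0.42 (SE 0.18) between TPA and Control (limma, adjusted p = 0.167) and 0.18 (SE 0.18) between ZnCl2 and Control (adjusted p = 0.70). The former was -0.24 without TPA replicate 2 (limma, adjusted p = 0.621). Between TPA and ZnCl2 it was -0.60 (SE 0.18, limma, adjusted p = 0.0245), where 11.9% of all regions were called lower. This was the one call among the 18 tests of the family's start-site regions. The call was lost without TPA replicate 2 (-0.42, adjusted p = 0.227) and without ZnCl2 replicate 1 (-0.38, adjusted p = 0.218). The ranks within lists of these groups overlapped, since ZnCl2 replicate 2 was at 28.7%.

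The normalized log2 score of SLC30A1 was 7.61 and 7.60 in the control, 7.57 and 7.50 after TPA, and 7.57 and 7.48 after ZnCl2. The differences from the control were -0.07 (SE 0.15, limma, adjusted p = 0.829) after TPA and -0.08 (SE 0.15, limma, adjusted p = 0.856) after ZnCl2. They were smaller than their errors, and the latter was 0.15 when libraries were centered on their median instead. Leaving out 1 library gave -0.097 to -0.036 for TPA minus Control and -0.12 to -0.035 for ZnCl2 minus Control. The values of both treatments lay below both control values on this scale, a pattern whose share among all regions was not counted. Limma gave no call for SLC30A1 with either treatment.

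**Figure D3:**
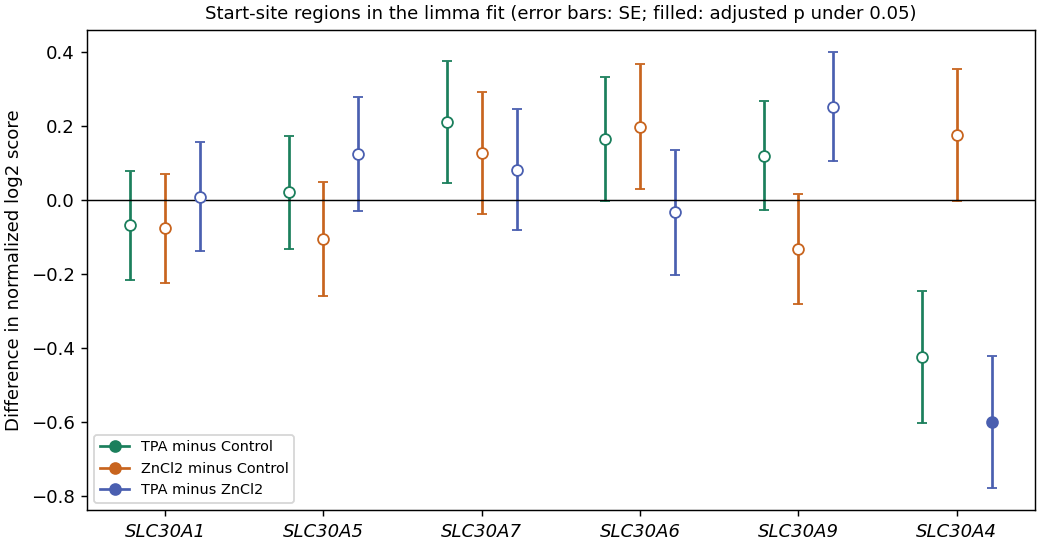
Difference in quantile-normalized log2 score of the merged region over the start site (vertical axis) for the 6 covered members in the 3 comparisons, with SE bars from limma and filled points where the adjusted p is under 0.05. The single filled point is SLC30A4 for TPA minus ZnCl2, at -0.60.

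SLC30A5 and SLC30A6 form a heteromeric transporter of the early secretory pathway, and SLC30A7 brings zinc into the Golgi. SLC30A5 (chr5:69094014-69094014, plus strand) ranked at 89.3 and 96.8% in the control, 94.6 and 95.9% after TPA, and 91.9 and 88.2% after ZnCl2. It was second to SLC30A1 in each library, and the control values spanned those of TPA. The rank was higher after TPA than after ZnCl2 by 5.16 points with no overlap, a pattern found in 21.5% of genes. SLC30A6 (chr2:32165864-32165864, plus strand) ranked at 76.6 and 80.6%, 77.7 and 92.0%, and 86.1 and 75.1% in the same order. SLC30A7 (chr1:100896090-100896090, plus strand) ranked at 74.5 and 84.1%, 80.8 and 93.3%, and 85.8 and 71.8%. For SLC30A6 and SLC30A7 every pair of conditions overlapped in rank. The region of SLC30A7 was 2510 and 3130 bp wide in the control and 3380 and 3510 bp wide after ZnCl2, again wider without overlap, as in 10.9% of genes. Its width rank overlapped, at 91.6 and 84.5% in the control and 94.0 and 86.2% after ZnCl2.

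Some of these regions belong to more than 1 gene. The merged region over the SLC30A7 start also holds the canonical start of EXTL2, a glycosyltransferase gene, and of the unnamed gene ENSG00000273204. The region over the SLC30A6 start also holds that of its divergent transcript SLC30A6-DT. Accessibility of these partners and of the family member cannot be told apart.

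SLC30A9, a family member linked to zinc export from mitochondria (chr4:41990530-41990530, plus strand), ranked at 70.7 and 84.5% in the control, 82.9 and 86.9% after TPA, and 78.6 and 48.9% after ZnCl2. ZnCl2 replicate 2 was the lowest, and the control overlapped both treatments. The TPA values exceeded both ZnCl2 values by 21.1 points on average, and by 6.33 points without ZnCl2 replicate 2. The limma difference between TPA and ZnCl2 was 0.25 (SE 0.15, adjusted p = 0.23), and 0.03 (adjusted p = 0.92) when scores within a merged region were averaged by width.

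By mean rank over the 6 libraries the order was SLC30A1 (99.3%), SLC30A5 (92.8%), SLC30A7 (81.7%), SLC30A6 (81.3%), SLC30A9 (75.4%) and SLC30A4 (48.3%). The ranges of SLC30A1 (98.6 to 99.5%) and SLC30A5 (88.2 to 96.8%) did not overlap, whereas those of each later neighbor did. SLC30A4 was last in 5 libraries, and in ZnCl2 replicate 1 it was above SLC30A9. Ranks compare whole regions and are not divided by region width. The members' median rank in a library lay between 73.4 and 92.7%, and the median over the 8610 genes between 68.0 and 86.4%. The 3 genes closest to SLC30A1 in rank over the 6 libraries were OSBP, PPP2CA and ENSG00000272772, with mean absolute differences of 0.0758, 0.0775 and 0.0775 points.

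In all, 90 exact permutation tests were made, on rank, width, upstream and downstream extent and width rank of the 6 covered members in 3 comparisons. Groups did not overlap in 31 of them, each at the smallest possible p, and the smallest exact permutation p after Benjamini-Hochberg adjustment was 0.952. Rank separated the groups in 1 member (SLC30A4, lower) for TPA against Control, where 10.3% of genes were higher and 23.8% lower, and in 0 members for ZnCl2 against Control, where 2.54% were higher and 13.3% lower. For TPA against ZnCl2 it did so in 3 members, SLC30A1, SLC30A5 and SLC30A9, all higher after TPA, where 21.5% of genes were higher and 17.8% lower. Without ZnCl2 replicate 2 these differences were 0.0343, 3.29 and 6.33 points, in place of 0.456, 5.16 and 21.1 points. With lists of equal length SLC30A1 ranked at 98.96 and 98.74% after TPA and 98.80 and 98.56% after ZnCl2, so that its groups then overlapped. These shares of members are small numbers of 6 and were not tested against the shares of all genes.

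For TPA against Control, 0 members were wider and 0 narrower without overlap (1.93 and 16.7% of genes), and 0 reached further upstream and 1 less far (3.48 and 18.9%). Downstream, 0 reached further and 2 less far (3.4 and 17.4%), namely SLC30A5 and SLC30A6, and by width rank 1 was higher and 0 lower (31.9 and 8.06%). For ZnCl2 against Control, 2 members were wider and 0 narrower (10.9 and 2.52% of genes), and 1 reached further upstream and 0 less far (14.4 and 3.54%). Downstream 0 were longer or shorter (12.6 and 4.36%), and by width rank 2 were higher, SLC30A1 and SLC30A9, and 2 lower, SLC30A4 and SLC30A5 (8.55 and 20.4%). TPA against ZnCl2 gave the most separations. All 6 members were narrower and 0 wider after TPA (55 and 2.57% of genes), 5 reached less far upstream and 0 further (46.4 and 3.74%), and 2 less far downstream and 0 further (43.7 and 4.56%). The narrower regions were thus common to the genome, and by width rank, which allows for the width of each list, 2 members were higher, SLC30A4 and SLC30A5, and 1 lower, SLC30A1 (40.4 and 7.18%). Both treatments were compared with the same control libraries, so their differences from the control are not independent.

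Away from the start sites, the windows of the 10 members held 10 further merged regions, beside the 6 over start sites. Of these 10, 2 were called in all 6 libraries. Calls inside the windows numbered 10 and 14 in the control, 10 and 12 after TPA, and 14 and 8 after ZnCl2, so that the replicates of a condition differed as much as the conditions. Open regions covered 1.51 and 2.76% of the 1063 kb of windows in the control, 1.66 and 1.78% after TPA, and 2.19 and 2.08% after ZnCl2. The control libraries spanned all others. The TPA libraries were below the ZnCl2 libraries, with means of 1.72% ± 0.0845 and 2.13% ± 0.0792 (SD, n = 2 each). Over the whole genome the open regions of the TPA lists covered 52.6 and 77.3 Mb and those of the ZnCl2 lists 65.0 and 44.4 Mb, which overlap. How often the windows of other genes separated in the same way was not counted.

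**Figure D4:**
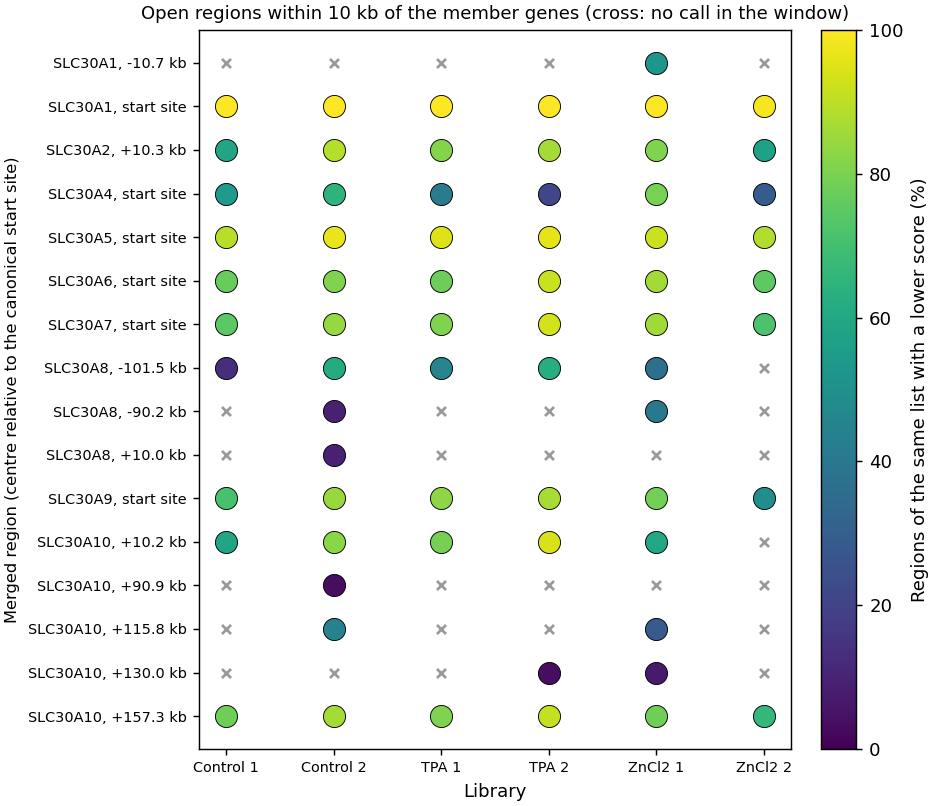
The 16 merged regions within 10 kb of a member gene (rows, named by gene and by the distance of their center from the canonical start site in kb) in the 6 libraries (columns), with the color giving the rank of the highest-scoring call in its own list in percent and a cross marking no call that reaches the window. SLC30A3 has no row, and 8 regions were called in all 6 libraries.

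The uncovered members differed in what their windows held. SLC30A3 had no open region in its window of 42134 bp in any library. SLC30A2 had 1 region, called in all 6 libraries, next to the end of the gene and overlapping the neighboring gene EXTL1 (chr1:26034241-26037370). The gene ends at 26037252, and in 5 libraries the call stopped short of it, at 26037150 or before. Only the call of Control replicate 2, which ran to 26037370, reached into SLC30A2. It ranked at 58.9 and 88.7% in the control, 81.5 and 86.5% after TPA, and 80.6 and 57.0% after ZnCl2. The control overlapped both treatments, and the nearest TPA and ZnCl2 values were 81.5 and 80.6%. Limma gave a difference from the control of 0.11 (SE 0.16, adjusted p = 0.734) after TPA and -0.02 (SE 0.16, adjusted p = 0.965) after ZnCl2, and 0.13 (SE 0.16, adjusted p = 0.585) for TPA minus ZnCl2.

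SLC30A10 had 5 regions along its long gene body and none over the canonical start at chr1:219928557-219928557. The nearest (chr1:219917191-219919540) overlaps an exon of the canonical transcript, 9017 bp or more beyond its start, and ranked at 58.9 and 82.6% in the control, 79.3 and 93.9% after TPA and 59.7% in ZnCl2 replicate 1. ZnCl2 replicate 2, which had the shortest list, had no call there. In Control replicate 2 the region was widest, 2350 bp, and covered the start of another annotated transcript of the gene. A region far within the gene body (chr1:219770411-219772120), in the part of the gene used by other transcripts, was called in all 6 libraries at 66.6 to 91.1%. Its limma differences from the control were 0.06 (SE 0.16, adjusted p = 0.856) after TPA and -0.12 (SE 0.16, adjusted p = 0.765) after ZnCl2.

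SLC30A8 had 3 regions, in 5, 2 and 1 libraries. The most frequent lay far upstream of the canonical start, in the part of the gene used by other transcripts, and ranked from 13.1% in Control replicate 1 to 62.4% in TPA replicate 2. ZnCl2 replicate 2 had no call in the SLC30A8 window. SLC30A1 had 1 region besides that over its start, at the upstream edge of the window, and although 5 libraries had a call there, only that of ZnCl2 replicate 1 reached into the window.

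Other genes of zinc handling were taken from a list of 27, the SLC39A importers, the metallothioneins, MTF1 and TMEM163. The start site was covered in all 6 libraries in 11 of them, in some in 7 and in none in 9. The importer SLC39A2 lost its start site after TPA, and no gene of the list gained one, against 0.56% of all genes lost and 0.245% gained. Its rank was 16.8 and 45.6% in the control and 49.9 and 13.9% after ZnCl2, so the calls lost were of middle or low rank. MT2A, a metallothionein, ranked at 70.7 and 79.6% in the control, 80.8 and 86.5% after TPA and 82.9 and 81.1% after ZnCl2. Both treatments thus lay above the control, as 10.3% of genes did after TPA and 2.54% after ZnCl2. SLC39A10 was lower after ZnCl2 (81.2 and 81.1%, against 85.6 and 95.9% in the control), as 13.3% of genes were. After TPA it ranked at 86.5 and 91.7%, above both ZnCl2 values, as 21.5% of genes did. With TPA the importers SLC39A8, SLC39A13 and SLC39A14 lay below the control without overlap, as did the metallothioneins MT1F and MT1X, which were called in 5 libraries, and 23.8% of genes covered throughout were likewise lower. SLC39A8 was the lowest of these importers, at 28.5 and 34.3% after TPA against 47.9 and 75.3% in the control. Its TPA values also lay below both ZnCl2 values, 78.6 and 68.0%, as for 17.8% of genes.

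In limma 13 genes of this list had a start-site region called in all 6 libraries, though not each call reached the start itself. Their values are from the fit above alone, and how they depend on single libraries was not tested. With TPA against Control 0 were higher and 1 was lower, with a median difference of -0.24 against 0.02 over all regions. The gene was SLC39A4 (-0.92, SE 0.15, limma, adjusted p = 0.00338), named after its values were seen, and only 1 of the 6 calls reached its start site. Among all regions 2.03% were called higher and 4.5% lower in that comparison. For ZnCl2 against Control, where 0.145% of all regions were called higher and 0.29% lower, none of the 13 was called by limma, and 1 passed at the unadjusted threshold of 0.05, SLC39A8 (difference 0.34, SE 0.15), where 15% of all regions did. Between TPA and ZnCl2, 3 were lower after TPA, namely SLC39A4 (-0.81), SLC39A8 (-0.85) and MT1E (-0.61, likewise named after its values were seen), with limma adjusted p of 0.00201, 0.00147 and 0.0365, and 0 were higher, where 11.9% of all regions were called lower and 11.5% higher. The vesicular exporter SLC30A4 and the importer SLC39A8 were thus both called lower after TPA than after ZnCl2, and neither was called against the control (for SLC39A8, limma, -0.51, SE 0.15, adjusted p = 0.0527). The ranks of MT1E within lists overlapped, at 43.4 and 36.3% after TPA and 87.9 and 25.3% after ZnCl2. For ZnCl2 against Control the limma difference was 0.36 (SE 0.20, adjusted p = 0.411) for MT1E and 0.29 (SE 0.16, adjusted p = 0.408) for MT2A. The paper, using DESeq2 on read counts, reported the regions of both genes as more accessible after ZnCl2. Limma on region scores did not call them, so the lack of a call for a member does not show unchanged accessibility.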

How the data were processed

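ATAC-seq open-region lists of 6 MCF10A libraries were used, grouped by the sample titles. Adapters had been removed by the authors with BBDuk, reads aligned in pairs with HISAT2 to hg38, and regions called by HMMRATAC for 1 library at a time. The submitters' processing notes name FastQC 0.11.8, HISAT2 2.1.0 and SAMtools 1.8. The caller's version and the kind of score are not given in the sources used here. The deposited value is a whole-number score per region, at least 30 in every list, from the authors' caller. Removal of blacklisted regions and the authors' DESeq2 test of read counts, which followed peak merging, were not repeated here. Without reads, depth is unknown and no counting interval is given.

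Between 72 and 203 regions per list lay outside chromosomes 1 to 22, X and Y and were left out. Start sites were those of Ensembl canonical transcripts in GENCODE 44 and counted as covered by an overlap of at least 1 bp. Merged regions called in all 6 libraries were tested with limma 3.58.1 (R 4.3.3) on the highest score, on a log2 scale after quantile normalization, with all 3 groups in 1 fit and Benjamini-Hochberg adjustment. On simulated data 93.5% of 200 regions changed by 1 on the log2 scale were called for TPA minus Control, and 96.5% for ZnCl2 minus Control. False calls numbered 5 and 15. The simulated noise was normal and independent between libraries, with the fitted spread of each region. Differences between lists were not simulated, so these numbers do not cover the dependence of the real calls on single libraries. The members' differences were all smaller than 1, and recovery at their size was not tested. Ranks and extents were compared by two-sided exact permutation tests. Promoter sequences were from RefSeq (9 of the 10 members matched) and equaled hg38. Named genes were all members, genes of the zinc list whose calls were gained or lost or whose libraries did not overlap, and the 3 genes nearest to SLC30A1 in rank. Cell type markers are named as a check of the line, and SLC39A4 and MT1E lie outside this rule and were named after their limma values were seen. The members and lists were chosen with earlier results of these data known. The values of 1 epithelial marker are not reported here. Alternatives were list length, score threshold, start-site definition, window size, ties, score summary, normalization, samples in the fit, replicate block and leaving out each library. Python 3.11.15, NumPy 2.4.6, pandas 2.3.3, pysam 0.24.0, Matplotlib 3.10.9 and samtools 1.23.1 were used.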

Additional observations from a re-analysis of the deposited data

How the results depend on the processing

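The count of 6 members covered in every library was 6 without any 1 library, 5 with an equal number of regions and 4 with the upper 50% by score. The count of members whose start site was gained or lost with TPA was 0 with full lists. It was 1 (SLC30A4, lost) with an equal number of regions, where 3.87% of all genes lost theirs. With the upper 50% by score it was again 1, SLC30A4, and both SLC30A4 and SLC30A9 were uncovered in ZnCl2 replicate 2. The share of all genes lost at the upper 50% is not given here, so this count cannot be set against it. The open share of the windows, -0.412 points for TPA minus ZnCl2, was -0.274 with the upper 50%, -0.509 at equal number and -0.274 with windows of 20 kb.

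The limma call counts depended on single libraries. For TPA against Control they ran from 3 (without Control replicate 1) to 1042, with 197 without Control replicate 2, 111 without TPA replicate 1 and 251 without TPA replicate 2. For ZnCl2 against Control they ran from 0 (without Control replicate 1, where 1731 passed an unadjusted p of 0.05) to 45, with 1, 2 and 4 without Control replicate 2, ZnCl2 replicate 1 and ZnCl2 replicate 2. The count was 18 at equal number and 3 with the width-weighted score. For TPA against ZnCl2 they ran from 1654 to 3529, with 2368 at equal number. In that comparison median centring gave 1573 higher and 2797 lower regions in place of 1817 and 1891. The causes were not tested. A lone library was assumed to vary like the other groups.

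Of 195 alternative member values in limma, 16 reversed, 2 lost a call and 0 gained one. With median centring SLC30A1 was at -0.24 for TPA minus ZnCl2 and 0.15 for ZnCl2 minus Control. SLC30A5 was then at -0.032 for TPA minus Control, -0.042 for TPA minus ZnCl2 and 0.0099 for ZnCl2 minus Control. SLC30A9 was at -0.10 for TPA minus Control with the width-weighted score. Leaving out 1 library gave SLC30A1 from -0.037 to 0.053 (TPA minus ZnCl2), SLC30A4 from -0.033 to 0.38 (ZnCl2 minus Control) and -0.84 to -0.38 (TPA minus ZnCl2), SLC30A5 from -0.11 to 0.14 (TPA minus Control) and -0.23 to 0.018 (ZnCl2 minus Control). It gave SLC30A6 from -0.052 to 0.39 (TPA minus Control) and -0.25 to 0.19 (TPA minus ZnCl2), and SLC30A7 from -0.0062 to 0.44 (TPA minus Control) and -0.14 to 0.31 (TPA minus ZnCl2). SLC30A4 could not be tested at equal number, since it had no call in the TPA lists.

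The labels share replicate numbers only, and deviations of same-numbered libraries correlated at 0.137 (Control and TPA), 0.0277 (Control and ZnCl2) and 0.0422 (TPA and ZnCl2), so the numbers were not taken as pairs. With the replicate block limma called 1292, 98 and 4086 regions and no member call changed. The open-share difference between TPA and Control is -0.416 points with or without the block by construction, and leaving out 1 library moved it to between -1.04 (Control replicate 1) and 0.209 (Control replicate 2). That between ZnCl2 and Control, -0.0042, moved to between -0.63 and 0.62 for the same libraries. The 50% overlap rule changes nothing, because each library region lies within its merged region.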
